A study of Mus musculus with 2 samples.

Results

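Xcl1, Xcr1, Flt3l and Flt3 are 4 genes of 2 ligand and receptor pairs that meet on dendritic cells, and they were taken by symbol from the 31055 genes of a single-cell experiment on mouse melanoma. B78ChOVA melanoma cells had been injected in 50 µl under the skin of the flank, tumours were taken after 16 days and cut live into sections of about 160 µm, and immune cells were sorted and run on the 10x Genomics platform. One gene expression library and one library of spatial barcodes, called ZC1, ZC2 and ZC3, came from the same cells, so there are no replicates: no test was possible, and every interval below is a 95% interval for counting error alone, which does not cover the spread between tumours. The strain and number of mice, the number of tumours and the region that each spatial barcode marks are not stated in the labels.

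The XC chemokine XCL1, also called lymphotactin, is secreted by activated CD8 T cells and natural killer (NK) cells and binds XCR1, a receptor known as the defining surface protein of type 1 conventional dendritic cells (cDC1). FLT3 ligand, the product of Flt3l, is a growth factor that acts through the receptor tyrosine kinase FLT3 on dendritic cells and their progenitors and sustains their numbers. In mouse tumours, NK cells and T cells are known sources of both ligands, and cDC1 are the dendritic cells that carry tumour antigen to CD8 T cells.

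The 4236 cells that passed the filters held a median of 23132 unique molecular identifiers (UMIs, each one counted RNA molecule), and 3766 of them fell into 13 classes gated on marker genes that left out all 4 genes. Among those were 69 NK-gated, 231 CD8 T-gated, 191 CD4 T-gated, 46 cDC1-gated, 39 mature dendritic cell (DC)-gated, 114 cDC2-gated, 12 plasmacytoid DC (pDC)-gated, 433 monocyte-gated and 2387 macrophage-gated cells. Over all kept cells Xcl1 had 6017 UMIs in 291 cells, Xcr1 1840 UMIs in 503 cells, Flt3l 851 UMIs in 706 cells and Flt3 515 UMIs in 194 cells. Levels are counts per 1000000 UMIs (CPM), from UMIs summed over a class. For free RNA, taken from barcodes with 10 to 100 UMIs, the levels were 54.4 CPM for Xcl1, 11.4 CPM for Xcr1, 7.89 CPM for Flt3l and 3.51 CPM for Flt3. From genes of other classes, free RNA was estimated at 0% to 6.14% of the UMIs in a class.

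All 4 genes lie on the minus strand in GRCm38. Xcl1 is at chr1:164931644-164935527 with 3 annotated exons, Xcr1 at chr9:123852315-123862029 with 2 exons, Flt3 at chr5:147330741-147400489 with 25 exons and Flt3l at chr7:45129788-45136432. The annotated Gm45713 overlaps 18 of the 33 annotated exons of Flt3l on the same strand and had 0 UMIs here, and Gm26597, antisense across the start of Flt3, had 8. How reads shared by overlapping genes were counted is not given in the sources used here, so the Flt3l counts carry that uncertainty. The bases before the RefSeq start are shown for the 3 genes whose highest level lay in 1 lineage, 5′ to 3′ on the gene's strand, with the letters of an ETS core, GGAAGT or its reverse complement ACTTCC, in capitals.
Xcl1, chr1:164935528-164935772, minus strand: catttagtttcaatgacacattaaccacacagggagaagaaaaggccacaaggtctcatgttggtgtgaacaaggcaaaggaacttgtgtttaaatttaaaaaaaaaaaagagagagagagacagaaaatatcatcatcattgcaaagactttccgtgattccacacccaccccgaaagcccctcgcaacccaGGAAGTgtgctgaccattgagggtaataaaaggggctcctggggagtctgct
Xcr1, chr9:123862030-123862279, minus strand: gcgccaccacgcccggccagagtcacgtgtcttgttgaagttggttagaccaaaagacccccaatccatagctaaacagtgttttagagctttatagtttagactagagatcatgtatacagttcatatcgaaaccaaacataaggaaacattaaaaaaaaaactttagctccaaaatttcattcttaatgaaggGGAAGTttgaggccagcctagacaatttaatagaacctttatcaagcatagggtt
Flt3, chr5:147400490-147400739, minus strand: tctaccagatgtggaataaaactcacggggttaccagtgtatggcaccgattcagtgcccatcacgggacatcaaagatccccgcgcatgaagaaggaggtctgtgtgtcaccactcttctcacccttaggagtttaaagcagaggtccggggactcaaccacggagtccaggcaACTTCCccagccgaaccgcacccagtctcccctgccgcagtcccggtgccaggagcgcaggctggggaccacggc
Each of the 3 windows held that motif once, at bases 57 to 52 before the start in Xcl1, 55 to 50 in Xcr1 and 75 to 70 in Flt3. The Xcl1 stretch shown has 245 of the 250 bases, because those nearest the RefSeq start lie inside the annotated gene and were left out. Its motif position counts from the RefSeq start and so includes the bases left out. The same letters stood in 19.7% of 32851 RefSeq windows of 250 bases searched on both strands, and the motif was picked with the sequences in view. Guanine and cytosine made up 43.7% of the Xcl1 window, 38.8% of the Xcr1 window and 59.2% of the Flt3 window, with 3, 5 and 13 CpG dinucleotides. The AP-1 letters TGANTCA were in none of these windows, against 6.75% of all, and neither were the NFAT core letters GGAAAA, against 20.4% of all. Only the letters were searched, so this describes the windows and not binding.

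**Figure D1:**
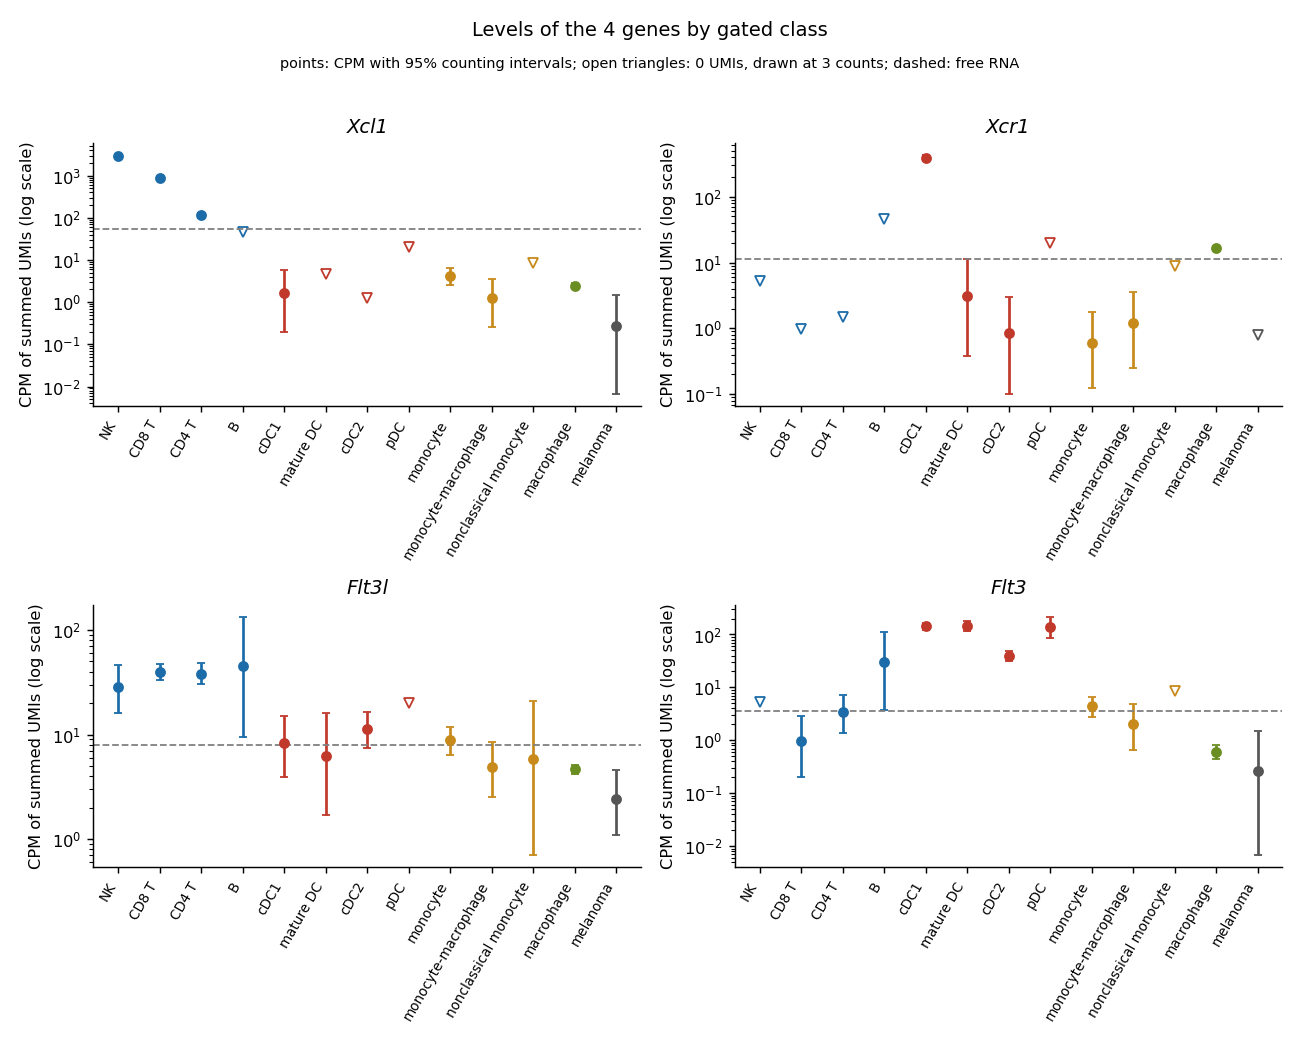
CPM of the summed UMIs of Xcl1, Xcr1, Flt3l and Flt3 in each gated class on log axes, with 95% counting intervals. Open triangles mark classes with 0 UMIs, drawn at the 3-count floor, and dashed lines mark free RNA. Xcl1 was highest in NK-gated cells at 2889 CPM and Xcr1 in cDC1-gated cells at 386 CPM, while Flt3 stood between 39.3 and 146 CPM in the 4 DC classes.

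Xcl1 was a transcript of NK and T cells in this library. NK-gated cells had 2889 CPM (interval 2750 to 3032), CD8 T-gated cells 863 (831 to 896) and CD4 T-gated cells 114 (100 to 130), and these 3 intervals did not overlap. NK- and CD8 T-gated cells held 27.2% and 44.5% of all Xcl1 UMIs. In the myeloid and dendritic classes the gene was low. Macrophage-gated cells had 2.48 CPM (2.13 to 2.86), above the 1.46 CPM estimated from free RNA, and 1 cell held 36.7% of those UMIs. Monocyte-gated cells had 4.20 CPM (2.60 to 6.42), against 3.3 estimated, with 71.4% of the UMIs in 1 cell. cDC1-gated cells had 2 UMIs, and mature DC-, cDC2- and pDC-gated cells had 0. Xcl1 UMIs were found in 92.8% of NK-gated, 33.3% of CD8 T-gated and 9.95% of CD4 T-gated cells, at median depths of 6090, 7992 and 6128 UMIs, against 1.80% of macrophage-gated cells at 29757 UMIs. After thinning every cell to 1000 UMIs the shares were 72.5% of NK-gated, 16.0% of CD8 T-gated, 3.66% of CD4 T-gated and 0.168% of macrophage-gated cells.

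NK-gated over CD8 T-gated cells, the Xcl1 ratio was 3.35 (3.15 to 3.56). In this comparison 4.4% of 7728 genes were at least 2-fold higher with an interval that left out 1, and 8.45% were lower by the same rule. Single cells weighed on the size: 1 CD8 T-gated cell had 687 Xcl1 UMIs out of 51676, which was 25.6% of that class, and without the top cell of each class the ratio was 4.08. Thinned cells gave 5.96. Per cell, NK-gated cells had a median of 9 Xcl1 UMIs, or 14.3 per 10000 UMIs, while 154 of 231 CD8 T-gated cells had none and 40 had more than 10. Xcl1 was thus spread over nearly all NK-gated cells and concentrated in a minority of CD8 T-gated cells.

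Of the factors that lymphocytes are known to secrete together with XCL1, those compared did not follow it between these classes. Of the 8 compared of 10 listed, 0 were past 2-fold higher in NK-gated cells and 2 were past 2-fold lower, with a median ratio of 0.507, against 0.899 over all genes compared. Ccl3, an inflammatory chemokine gene, had 228 CPM in NK-gated and 1248 in CD8 T-gated cells, a ratio of 0.183 (0.152 to 0.218). Csf1, the growth factor of macrophages, had 3.54 and 19.7 CPM in the same order, on 2 and 61 UMIs. Csf2 and Il2 held too few UMIs to be compared. Csf2 was at 19.45 and 2.90 CPM on 11 and 9 UMIs, and Il2 at 0 and 3.22 CPM on 0 and 10 UMIs. Ifng, the gene of interferon gamma, had 189 CPM in NK-gated and 376 in CD8 T-gated cells, a ratio of 0.503 that stayed just inside the 2-fold rule. At the level of single cells, 37 of 69 NK-gated and 59 of 231 CD8 T-gated cells held UMIs of both Xcl1 and Ifng.

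Over CD4 T-gated cells, the Xcl1 ratio was 25.2 for NK-gated cells (22.0 to 29.1), where 3.76% of 7097 genes were past 2-fold higher and 12.2% lower, and 7.54 for CD8 T-gated cells (6.59 to 8.66), where 2.26% of 8590 genes were higher and 5.61% lower. Both sizes depended on how CD4 T cells were chosen: with Leiden clusters, which held 152 of the 191 CD4 T-gated cells under that name, the ratios were 1041 and 255. CD4 T-gated cells held nearly all of their Xcl1 outside the Foxp3-positive cells. The 90 cells with Foxp3 UMIs, the gene of the regulatory T cell factor, had 1.74 CPM, and the 101 cells without had 266 CPM, a ratio of 0.00653 (0.000786 to 0.0239). Among the 6460 genes compared there, 4.29% were past 2-fold lower and 4.88% higher. Ifng was on the same side, at 29.5 CPM in Foxp3-positive and 204 in Foxp3-negative cells, as was the chemokine gene Ccl1 at 1.74 and 196 CPM. Flt3l had 37.3 and 39.6 CPM, a ratio of 0.942 (0.586 to 1.52). Few cells carried the CD4 signal: 19 of 191 had an Xcl1 UMI, 10 had more than 5, and 1 cell held 37.8% of the class.

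**Figure D2:**
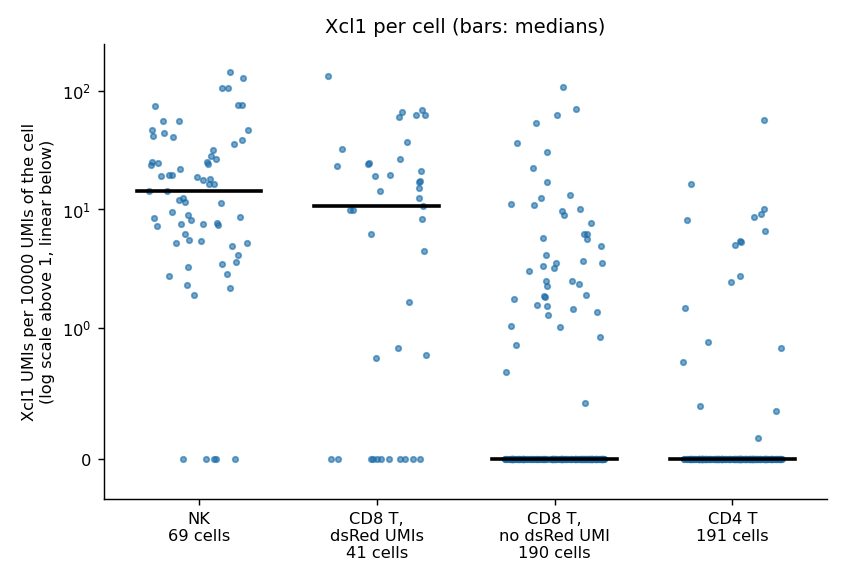
Xcl1 UMIs per 10000 UMIs of each cell, on an axis that is logarithmic above 1 and linear below it, for NK-gated cells, CD8 T-gated cells with and without dsRed UMIs, and CD4 T-gated cells. Each point is a cell and each bar a median: 14.3 in NK-gated cells, 10.7 in CD8 T-gated cells with dsRed UMIs and 0 in the other 2 sets.

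CD8 T-gated cells fell into 2 populations that differed in Xcl1. UMIs of dsRed, a red fluorescent protein listed among the genes as dsredexpress1, were found in 41 of the 231 cells, and the labels do not say which cells carried it. Cells with dsRed had 1940 CPM of Xcl1 (1853 to 2031) and cells without had 386 (360 to 413), a ratio of 5.03 (4.63 to 5.47), with 2.52% of 7306 genes past 2-fold higher. Without the top cell of each set the levels were 1289 and 295 CPM and the ratio 4.37, and in thinned cells it was 7.23. In median, a cell with dsRed held 18 Xcl1 UMIs and a cell without held 0, at median depths of 18048 and 6409 UMIs. Thinned to 1000 UMIs, Xcl1 was detected in 56.1% of cells with dsRed and 7.37% of cells without.

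The same cells differed in sex-linked transcripts. Xist, which is transcribed from an inactive X chromosome, was found without any of 4 Y-linked genes in 34 CD8 T-gated cells, 33 of which had dsRed, and in 0 of the 4005 kept cells outside that class. Y-linked transcripts without Xist were found in 144 CD8 T-gated cells, 0 of which had dsRed. Xcl1 was at 2454 CPM in the cells with Xist alone and 335 CPM in those with Y-linked transcripts alone. Flt3l ran the other way, at 19.9 CPM in cells with dsRed and 48.4 in cells without, a ratio of 0.412 (0.238 to 0.676) with 4.33% of genes past 2-fold lower. Against CD8 T-gated cells without dsRed alone, the NK-gated cells' Xcl1 ratio was 7.49.

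To ask what accompanied Xcl1 within CD8 T-gated cells, cells were split by whether an Xcl1 UMI remained after thinning to 1000 UMIs, which gave 37 cells with and 194 without, and all UMIs were then compared. Past 2-fold were 479 genes, of which 190 (2.6% of 7306) were higher and 289 (3.96%) lower in cells with Xcl1. Which genes these were depended on the draw: with another random seed, 67 of the 190 and 109 of the 289 were past the same rule. Within cells without dsRed, 14 with and 176 without Xcl1, 152 genes (2.97% of 5113) were higher and 186 (3.64%) lower, and these took in 45 of the 190 and 54 of the 289. Cells with Xcl1 also had more dsRed (ratio 3.72) and more Xist (ratio 7.05), a median depth of 14658 UMIs against 6964.5, and other sums of markers. The 7 macrophage markers summed to 281 CPM with Xcl1 and 556 CPM without, while the 8 cDC1 markers summed to 139 and 52.0 CPM, the 6 cDC2 markers to 407 and 198 CPM, and the 8 mature DC markers to 128 and 33.2 CPM. Single genes made up much of some sums: Ccr7 alone gave 98.3 and 18.8 CPM of the mature DC sums. Clec9a and Snx22 of the cDC1 markers, and Fscn1, Apol7c and Ccl22 of the mature DC markers, were at 0 in both sets. The parts of these differences in the split were not tested.

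Some genes kept their direction under 5 other choices of seed, depth and cells. Crtam, which encodes a cell adhesion receptor of activated CD8 T and NK cells, had 252 CPM in cells with Xcl1 and 31.5 in cells without, a ratio of 8.01 that ranged from 5.88 to 17.3 under those choices. Nrgn, the gene of a calmodulin-binding protein, had a ratio of 11.9 and a range of 5.36 to 15.2. Ifng had 676 CPM in cells with Xcl1 and 294 in cells without, a ratio of 2.29 (2.04 to 2.59), which was 1.44 once the cell richest in Xcl1 was left out and 3.9 at most. Ccl5, a chemokine gene of cytotoxic T cells, was lower at 1420 and 6266 CPM, with a ratio of 0.227 and a range of 0.244 to 0.540. The granzyme genes Gzma and Gzmk, whose products are proteases of cytotoxic granules, had ratios of 0.101 and 0.185, and stayed below 0.5 under all 5 choices. Flt3l had 16.6 CPM in cells with Xcl1 and 45.9 in cells without. Of the 37 cells with Xcl1, 23 held dsRed, and Flt3l was at 19.9 CPM in all cells with dsRed and 48.4 in those without. Counted without thinning, 24 of all 231 CD8 T-gated cells held UMIs of both Xcl1 and Flt3l.

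Other genes did not keep it. Ccl4, a chemokine made with Ccl3, had a ratio of 0.881 with the reported seed and 3.12 with another. For Gzmc, a further granzyme gene, the ratios were 0.0750 and 6.99, and for Ccl3 the ratio of 1.77 became 0.958 without the cell richest in Xcl1. Cxcl10, an interferon-induced chemokine, led the list with 13.6, but 72.6% of its UMIs in cells with Xcl1 came from 1 cell, and thinning to 2000 UMIs gave 0.730. Of the 16 genes compared in the list of CD8 T cell states, 1 was past 2-fold higher and 5 lower, against 2.6% and 3.96% of all genes. Nr4a2, an early activation factor, had a ratio of 2.18, and the cytotoxicity genes Gzmb and Prf1 were among the lower ones. The inhibitory receptor genes Pdcd1 and Havcr2 had ratios of 1.29 and 1.05, with intervals that held 1.

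**Figure D3:**
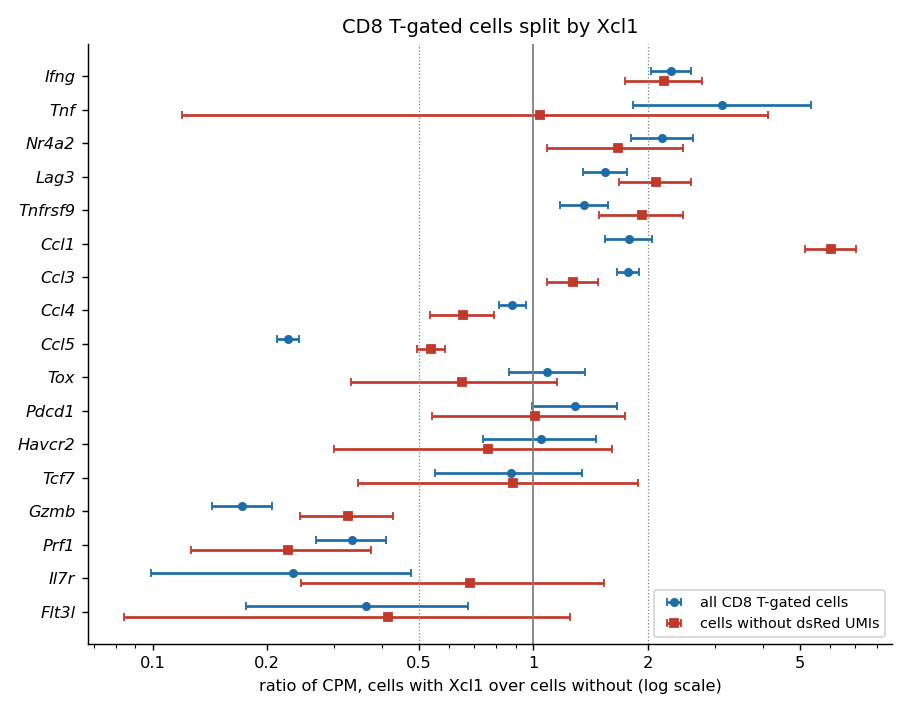
Ratios of CPM in CD8 T-gated cells with Xcl1 over those without, on a log axis with 95% counting intervals, for genes of the secreted factor and T cell state lists and Flt3l. Circles are all cells and squares cells without dsRed UMIs; dotted lines mark 0.5 and 2. Ifng stood above 2 in both sets, at 2.29 and 2.21, while Tnf was at 3.13 in all cells and 1.04 without dsRed.

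Across the 13 classes, the genes whose levels were most like Xcl1 were those of NK cells and cytotoxic T cells. Over 11372 genes, the highest Pearson correlations of log2(CPM + 10) were 0.998 for Gm2682, 0.997 for Klrc1, which encodes the inhibitory receptor NKG2A, 0.997 for Fasl, the ligand of the death receptor Fas, 0.995 for Ifitm10 and 0.993 for Cd160, a receptor of NK and CD8 T cells. All 5 were highest in NK-gated and next highest in CD8 T-gated cells, for example Klrc1 at 193 and 117 CPM. The 13 points come from 1 library and most lie near 0, so these values describe a shared pattern only.

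Xcr1 marked the cDC1-gated cells. Those 46 cells had 386 CPM (352 to 423), and 82.6% of them held a UMI, at a median depth of 25281 UMIs. Mature DC- and cDC2-gated cells had 2 UMIs each, and pDC-gated cells 0 of 149215, which allows up to 20.1 CPM. Over the other DC classes together the ratio was 305 (119 to 1125), in a comparison where 3.75% of 8044 genes were past 2-fold higher and 11.1% lower. NK-, CD8 T- and CD4 T-gated cells together had 0 UMIs of Xcr1, which allows up to 0.528 CPM. In the cDC1-gated cells the receptor was found together with Flt3 in 37 of 46 cells, with 1 cell holding Xcr1 alone, 1 Flt3 alone and 7 neither.

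Of the cDC1 programme, 13 genes were compared and 9 of those were gate markers, whose values the gate fixed, which leaves 4. Irf8, the lineage factor of cDC1, was higher at 1955 CPM in cDC1-gated and 390 in other DC-gated cells, a ratio of 5.02, though the pDC-gated cells among these had 2761 CPM. Batf3 and Id2, factors that cDC1 need, had ratios of 1.98 and 1.79, but neither was highest in cDC1-gated cells: Batf3 had 186 CPM in cDC1-gated and 208 in mature DC-gated cells, and Id2 had 996 CPM in cDC1-gated and 1454 in mature DC-gated cells. Nfil3, another such factor, was lower at 0.287. Cxcr3, a receptor for interferon-induced chemokines, was 12.8-fold higher, at 64.9 and 5.06 CPM, with 73.7 CPM in pDC-gated cells. Il12b, which encodes a subunit of interleukin 12, was lower in cDC1-gated cells at 2.47 CPM, against 57.9 in the other DC classes. All 183 of those UMIs were in mature DC-gated cells, at 284 CPM.

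Genes most like Xcr1 across classes were Cd207 (r = 0.972), which encodes langerin, Snx22 (0.944), itself a gate marker, Tlr11 (0.940), a Toll-like receptor known from cDC1, Rnf144b (0.919) and A530099J19Rik (0.915). Cd207 was at 4.93 CPM in cDC1-gated and 1.88 in macrophage-gated cells, so that likeness rests on low levels.

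Macrophage-gated cells held most of the Xcr1 UMIs in kept cells, as they did of all gene UMIs. With 1254 UMIs in 415 of 2387 cells they had 16.5 CPM (15.6 to 17.4), against 0.307 CPM estimated from free RNA. That was 68.2% of the Xcr1 UMIs in kept cells. The class made up 56.35% of kept cells and held 75947850 of their 110576510 gene UMIs, so the Xcr1 share was close to its share of all UMIs. Monocyte-gated cells had 3 UMIs and 0.599 CPM, a macrophage-over-monocyte ratio of 27.5 (9.40 to 134), with 16.1% of 11429 genes past 2-fold higher. Thinned to 10000 UMIs, Xcr1 was found in 8.69% of 2266 macrophage-gated cells (7.57 to 9.93), 0.781% of 256 monocyte-gated cells, 80.0% of 45 cDC1-gated cells and 0 of 108 cDC2-gated cells. The macrophage level was far below that of cDC1-gated cells and well above that of monocyte-gated cells.

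Most macrophage-gated cells with Xcr1 held no UMI of Clec9a or Flt3. Clec9a, Itgae and Flt3 were higher in cells with 3 to 9 Xcr1 UMIs than in cells with none, and highest in those with 10 or more. Of the 415 macrophage-gated cells with Xcr1, 50 held a UMI of Clec9a, a cDC1 receptor for dead cells, and 7 one of Flt3. Of the 1972 with no Xcr1 UMI, 78 held Clec9a and 12 held Flt3. The 2245 macrophage-gated cells without either transcript had 14.4 CPM of Xcr1 (13.5 to 15.3), and the cDC1-gated level was 26.9 times theirs. Most positive cells held little: 270 had 1 or 2 UMIs, 124 had 3 to 9, and 21 had 10 or more, which made up 26.0% of the UMIs. Those 21 cells had 208 macrophage marker UMIs per 10000 in median, against 244 in cells with no Xcr1 UMI. Clec9a stood at 17.0 CPM in these 21 cells, against 1.79 in cells with no Xcr1 UMI, and cDC1-gated cells had 121. Itgae, the CD103 gene, stood at 29.4 CPM, against 0.592 in cells with no Xcr1 UMI and 227 in cDC1-gated cells. Flt3 stood at 8.03 CPM, against 0.389 in cells with no Xcr1 UMI. Few cells carried these values: 6 of the 21 held Clec9a and 2 held Flt3. The 124 cells with 3 to 9 Xcr1 UMIs had 7.60 CPM of Clec9a, 2.09 of Itgae and 2.28 of Flt3. Among them 22 held Clec9a and 3 held Flt3. The cDC1 markers together moved little, with medians of 5.58 per 10000 UMIs in the 21 cells and 4.22 in cells with no Xcr1 UMI. In cDC1-gated cells that median was 31.5. Cadm1, another cDC1 marker, had 277.5 and 176 CPM in the same 2 sets, both above the 96.2 of cDC1-gated cells. The part that cDC1 material in these droplets had in the level was not tested beyond these values.

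**Figure D4:**
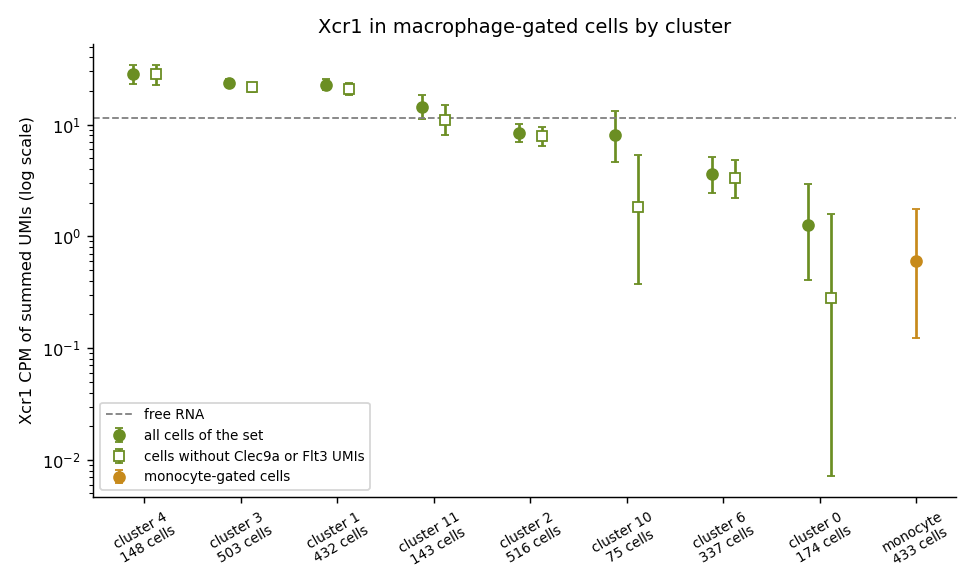
Xcr1 CPM on a log axis with 95% counting intervals in macrophage-gated cells of 8 Leiden clusters, made without the 4 genes. Filled circles are all cells, open squares cells without Clec9a or Flt3 UMIs, the last point is the monocyte-gated cells and the dashed line is free RNA. Clusters 4, 3 and 1 stood between 22.8 and 28.3 CPM, cluster 0 at 1.25 and monocyte-gated cells at 0.599.

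Among macrophage-gated cells, Xcr1 varied by cluster. Clusters 1 and 3, with 432 and 503 such cells, had 22.8 and 23.7 CPM, and without cells holding Clec9a or Flt3 they had 20.98 and 21.55. Cluster 4 had 28.3 CPM, of which 1 cell gave 44.4%. Cluster 2 had 8.43 and cluster 6 had 3.58 CPM. Cluster 0, led by the monocyte genes Ly6i and Ly6c2, had 1.25 CPM. In cluster 10 the level of 8.14 CPM was 1.82 without the cells holding Clec9a or Flt3.

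Cells without Clec9a or Flt3 UMIs were then split by whether Xcr1 remained after thinning to 10000 UMIs, 162 with and 1963 without. Of 11574 genes, 0.717% were past 2-fold higher in cells with Xcr1, and 3.24% were lower; with the cells holding Clec9a or Flt3 included, the shares were 0.783% and 3.01% of 11882 genes. In that fuller split, with 197 cells with and 2069 without Xcr1, 2 of 11 cDC1 programme genes were past 2-fold higher. These were Clec9a at 9.74 and 1.81 CPM (ratio 5.39, 3.97 to 7.26) and Itgae at 5.68 and 0.603 CPM (ratio 9.43). Ratios were ranked among genes with at least 100 UMIs, found in at least 10% of the cells of the higher set, and Clec9a had the highest. Flt3 had a ratio of 7.73 there. In the cells without Clec9a or Flt3, the highest by the same ranking were Cdkn2a, a cell cycle inhibitor gene, at 9.63 and 2.60 CPM (ratio 3.70), and Asb2, an adaptor of a ubiquitin ligase, at 27.0 and 7.73 CPM (ratio 3.50). The lowest were F13a1, the gene of a coagulation factor subunit (ratio 0.0480), Arg1, the arginase gene (0.0535), and Lyz1, a lysozyme gene (0.0683). Monocyte genes were among the lower ones, with Ly6c2 at a ratio of 0.107 and Ccr2, the receptor that brings monocytes into tissue, at 0.361. The removal of Clec9a-positive cells bears on the cDC1 programme here, of which 9 genes were compared, 0 were past 2-fold higher and 1 was lower. The summed cDC1 markers stood at 532 CPM with Xcr1 and 465 CPM without, Clec9a being at 0 by choice, and macrophage markers at 23730 and 25300 CPM.

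Flt3l was a low, broad transcript whose levels were higher in lymphocyte classes than in myeloid ones. CD8 T-gated cells had 39.6 CPM (33.0 to 47.3), CD4 T-gated cells 38.3 (30.2 to 47.9) and NK-gated cells 28.3 (16.2 to 45.9), 3 intervals that overlapped. The 12 B-gated cells had 3 UMIs, or 45.7 CPM (9.42 to 134). Below these came cDC2-gated cells at 11.4 CPM, monocyte-gated cells at 8.79, cDC1-gated cells at 8.22, mature DC-gated cells at 6.21 and macrophage-gated cells at 4.64 (4.16 to 5.14), and the intervals of the DC classes overlapped that of the monocyte-gated cells. CD8 T-gated over CD4 T-gated cells the ratio was 1.03 (0.772 to 1.39), and NK-gated over CD8 T-gated cells 0.713 (0.395 to 1.21). Flt3l was found in 35.9% of CD8 T-gated cells and 13.2% of macrophage-gated cells at the depths given above.

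NK-, CD8 T- and CD4 T-gated cells together had 38.0 CPM of Flt3l, against 4.89 in monocyte- and macrophage-gated cells, a ratio of 7.78 (6.56 to 9.19), with 14.3% of 11827 genes past 2-fold higher and 18.0% lower. The median cell of these groups held 6728 and 25968 UMIs. The 2387 macrophage-gated cells still held 352 UMIs, or 41.4% of the Flt3l UMIs in kept cells. Adam17, the gene of a protease known to shed FLT3 ligand from the cell surface, lay on the other side, at 27.1 CPM in lymphocyte-gated and 110 in the myeloid cells, a ratio of 0.245. Rpl13a, the ribosomal protein gene next to Flt3l, had a ratio of 2.14. In NK-gated cells all 14 cells with Flt3l also held Xcl1, but so did 64 of all 69 NK-gated cells.

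The genes most like Flt3l across classes were Prkd2 (r = 0.974), which encodes protein kinase D2, Sfn (0.952), Dkkl1 (0.950), Ubxn11 (0.944) and Zbtb32 (0.926). B-gated cells were the highest or second highest class for all 5, and with 12 cells in that class a level of 30.4 CPM stands for 2 UMIs.

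Flt3 was a transcript of the dendritic cells. Mature DC-gated cells had 146 CPM (118 to 179), cDC1-gated cells 141 (121 to 164) and pDC-gated cells 141 (87.1 to 215), 3 levels whose intervals overlapped, and cDC2-gated cells stood apart below them at 39.3 (31.7 to 48.1). A UMI was found in 74.4%, 82.6%, 75% and 42.1% of these cells, against 0.796% of macrophage-gated cells. cDC1-gated over cDC2-gated cells the ratio was 3.60 (2.78 to 4.68), with 3.46% of 7495 genes past 2-fold higher and 8.97% lower. Mature DC-gated over cDC2-gated cells it was 3.72 (2.76 to 5.01), with 9.87% of 7122 genes past 2-fold higher and 22.2% lower. Mature DC-gated cells thus had Flt3 at the level of cDC1-gated cells within counting error, and 2 UMIs of Xcr1.

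All DC-gated cells together had 86.8 CPM of Flt3, against 0.875 in monocyte- and macrophage-gated cells, a ratio of 99.2 (77.0 to 129) that was 230 with Leiden clusters and 160 without cells carrying markers of another class, with 8.76% of 11355 genes past 2-fold higher and 12.9% lower. The myeloid remainder was unequal: macrophage-gated cells had 0.606 CPM and monocyte-gated cells 4.40, a ratio of 0.138 (0.0812 to 0.241) with 9.23% of genes past 2-fold lower, and 0.0679 when clusters took the place of gates. NK-gated cells had 0 UMIs.

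Related receptors divided the DC and the monocyte and macrophage classes. Kit, the stem cell factor receptor and a relative of FLT3, was at 25.6 CPM in DC-gated cells and 0.408 in the others (ratio 62.7), while Csf1r, the receptor for macrophage growth factor, was at 97.8 and 406 CPM (ratio 0.241). Of the 12 genes for FLT3 ligand shedding and FLT3 signalling, 3 were past 2-fold higher and 3 lower in DC-gated cells, with a median ratio of 1.01, against 0.908 over all genes. Higher were Socs2, a feedback inhibitor of cytokine signals (19.7), Stat5a, a signal transducer (3.71), and Cblb, a ubiquitin ligase (3.58). Lower were Adam17 (0.285), its relative Adam10 (0.353) and Ptprj, a phosphatase that acts on FLT3 (0.448). Among DC classes Socs2 lay mostly in mature DC-gated cells, at 567 CPM, against 6.33 in cDC2-gated and 3.29 in cDC1-gated cells. Cblb was also highest in mature DC-gated cells, at 155 CPM, against 11.8 in cDC2-gated and 18.1 in cDC1-gated cells. Genes most like Flt3 across classes were Kynu (r = 0.938), Btla (0.912), Syngr2 (0.909), Haao (0.887) and Bloc1s2 (0.865). Kynu and Haao encode enzymes of tryptophan breakdown, and Btla an inhibitory receptor.

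Spatial barcodes were compared for CD8 T-gated cells first. All kept cells held some barcode UMIs. By the rule of at least 10 UMIs and 2 times the next barcode, 13 cells were ZC1, 20 were ZC2 and 64 were ZC3, and ZC1 was below the minimum of 20 cells set for comparison: it had 2 Xcl1 UMIs, against 752 in ZC3, a ratio of 0.0414 (0.00500 to 0.150). By shares relative to free barcodes, with 62, 49 and 42 cells, Xcl1 was at 199 CPM in ZC1, 1580.0 in ZC2 and 824 in ZC3, so that ZC1 over ZC3 gave 0.241 (0.192 to 0.300), in a comparison where 10.6% of 4528 genes were past 2-fold lower. ZC1 over ZC2 gave 0.126 (0.101 to 0.155), with 4.91% of 4701 genes past 2-fold lower and 3.23% higher. Leaving out the top cell of each barcode gave 158, 715 and 544 CPM. Cells with dsRed numbered 4, 11 and 7, and median depths were 5605, 11299 and 9498.5 UMIs. In cells without dsRed the levels were 95.6, 320 and 735 CPM, and 66.3, 208 and 354 without the top cells.

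Flt3l in the same CD8 T-gated cells was highest in ZC1, at 64.9 CPM in ZC1, 37.3 in ZC2 and 20.6 in ZC3. The ratio of ZC1 over ZC3 was 3.14 (1.62 to 6.40), with 5.9% of genes past 2-fold higher, on 31 and 14 UMIs. By the absolute rule it was at 57.1 CPM in the 13 cells of ZC1, 63.5 in ZC2 and 22.9 in ZC3. Cells without dsRed had 73.0, 51.4 and 21.7 CPM. CD4 T-gated cells did not show this for Flt3l, at 38.5, 37.3 and 38.9 CPM. Their Xcl1 was at 70.6, 238 and 8.97 CPM, and at 31.3, 68.8 and 3.20 without the top cells, an order unlike that of the CD8 T-gated cells.

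**Figure D5:**
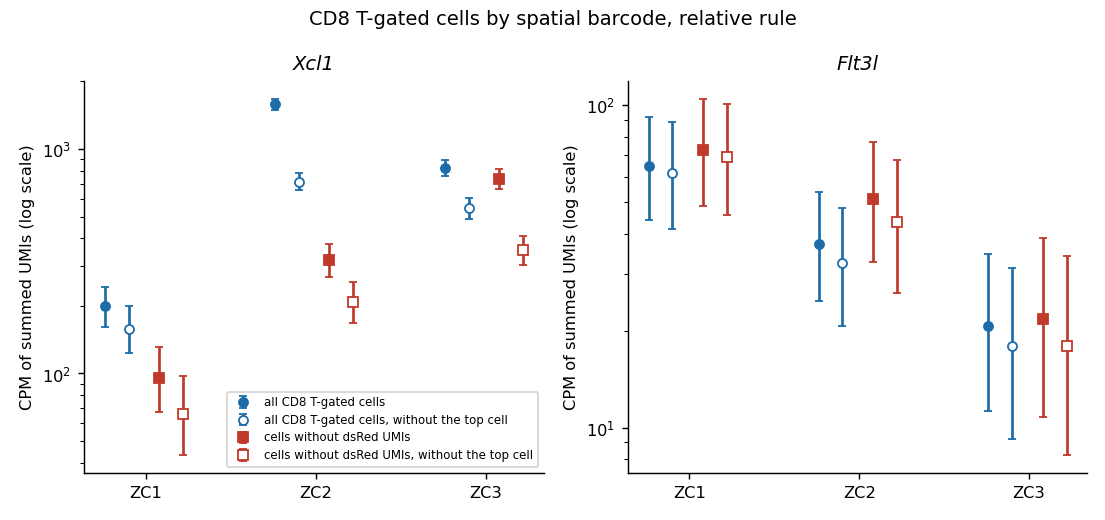
CPM of Xcl1 and Flt3l in CD8 T-gated cells by spatial barcode under the relative rule, on log axes with 95% counting intervals. Circles are all cells, squares cells without dsRed UMIs, and open symbols leave out the cell with the most UMIs of the gene. Xcl1 was lowest in ZC1 in all 4 versions, at 66.3 to 199 CPM, and Flt3l was highest there, at 61.7 to 73.0 CPM.

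The receptors were compared in DC- and macrophage-gated cells. In all DC-gated cells Xcr1 was at 112 CPM in ZC1, 126 in ZC2 and 73.8 in ZC3, where 8 of 42, 15 of 59 and 9 of 54 cells were cDC1-gated, and Flt3 was at 76.2, 108 and 76.5 CPM. In macrophage-gated cells Xcr1 was at 13.4, 16.2 and 21.9 CPM, and at 6.78, 13.6 and 21.2 without the top cell of each barcode, so that ZC1 over ZC3 gave 0.612 with all cells and 0.319 without the top ones. The Xcr1 ratio of ZC1 over ZC3 in DC-gated cells was 1.52 (1.12 to 2.06), and 2.09 without the top cells, while Flt3 gave 0.996 (0.712 to 1.39). Flt3 in macrophage-gated cells gave 3.41 (1.30 to 8.86), on 10 and 11 UMIs. NK-gated cells had 2698 CPM of Xcl1 in 27 cells of ZC1, 4521 in 14 cells of ZC2 and 2196 in 11 cells of ZC3, the last 2 sets being below 20 cells. With 1 library, the region and the cells caught in it cannot be told apart.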

How the data were processed

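Immune cells of 1 melanoma experiment were measured in 2 libraries of the same cells. The deposited matrix holds UMI counts of genes and spatial barcodes for every barcode, per the file headers. Cell Ranger 4.0.0 and mm10 come from the submitters' processing notes. Barcodes with at least 1000 gene UMIs, 500 genes and at most 10% mitochondrial UMIs were kept (4236). Scrublet (scanpy 1.11.5) called 0 doublets and so did not work here, and none were removed. The 210 cells with both T cell and macrophage markers stayed outside the classes. Cells with macrophage markers and NK or DC markers were not set aside in this way and could be macrophage-gated.

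Cells were gated on summed marker UMIs without the 4 genes, so classes are ranges of marker levels: 25 of 2387 macrophage-gated and 29 of 433 monocyte-gated cells lay within 20% of the gate, and 2154 and 235 lay in Leiden clusters of the same name (21 clusters, 1996 genes). Error is given as exact Poisson intervals for CPM, Clopper-Pearson intervals for shares and conditional binomial intervals for ratios, all at 95%. A gene entered a comparison when the pair of sets held 30 or more of its UMIs and the smaller was expected to hold 3. Past 2-fold means a ratio of at least 2, or of 0.5 or less, with an interval that leaves out 1. The limit for a count of 0 is 3 counts. The code was tested on simulated data.

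Named genes were the 4 genes, the listed genes, the 5 most alike over classes among genes with at least 100 UMIs, and the 10 highest and 10 lowest in the split by Xcl1. Ranks in a split were taken among genes with at least 100 UMIs, found in at least 10% of the cells of the higher set. Genes named in the split of macrophage-gated cells were chosen after their values were seen. The 4 genes, the lists and the comparisons were chosen with earlier results of these data known. The relative spatial rule divided barcode shares by those in free barcodes and needed 30 UMIs and 1.5 times the next. Alternatives changed filters, gates, depth, single cells and the spatial rule. Those on dsRed, single genes and further class ratios were added after the data were seen. The work ran in Python 3.11.15 with igraph 0.11.9, matplotlib 3.10.9, pandas 2.3.3, scipy 1.17.1 and numpy 2.4.6.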

Additional observations from a re-analysis of the deposited data

Results flagged for a closer look

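Cells outside the 13 classes entered no comparison, and 6 of their levels had a counting interval wholly above the free RNA level. The 69 T cells that could not be split into CD8 and CD4 had 1168 CPM of Xcl1 (1070 to 1274), against 54.4 CPM in free RNA, and 1 of these cells held 67.9% of the UMIs. They also had 40.7 CPM of Flt3l (24.1 to 64.3), against 7.89 CPM in free RNA, and 18.1 CPM of Flt3 (7.81 to 35.6), against 3.51 CPM, the 8 Flt3 UMIs being in 1 cell. The 210 mixed cells held both T cell and macrophage markers. They had 64.4 CPM of Xcl1 (59.1 to 70.0) and 14.1 CPM of Flt3l (11.7 to 16.9), against 54.4 and 7.89 CPM in free RNA. The 191 cells that met no gate had 8.60 CPM of Flt3 (5.96 to 12.02), against 3.51 CPM in free RNA. The interval of free RNA itself, 46.8 to 62.7 CPM for Xcl1 and 1.81 to 6.12 CPM for Flt3, overlapped that of Xcl1 in the mixed cells and that of Flt3 in the cells that met no gate.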

How the results depend on the processing

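No paired analysis was possible because the study has 1 gene expression library. Over 6 results and 64 alternatives, 49 values moved by less than the counting error, or for the count of genes by less than 1.5 times, and 15 moved further. No ratio changed direction, and the count of genes has no direction that could change. Xcl1 in NK-gated over CD8 T-gated cells (3.35) was 2.57 with at most 5% mitochondrial UMIs, 4.08 with Leiden clusters, 3.07 without cells carrying markers of another class, 4.15 as a mean over cells, 4.08 without the top cells, 5.96 thinned to 1000 UMIs and 7.49 against CD8 T-gated cells without dsRed. Xcr1 in cDC1-gated cells (305) was 26.9 against macrophage-gated cells without Clec9a or Flt3. Flt3 in DC-gated cells (99.2) was 230 with Leiden clusters, 160 without cells carrying other markers and 133 thinned. Flt3l in lymphocyte-gated cells (7.78) was 10.8 as a mean over cells and 10.7 thinned. Xcl1 in ZC1 over ZC3 (0.0414) was 0.241 under the relative rule. The 479 genes past 2-fold were 173 with at least 100 UMIs, and the share of higher ones, 39.7%, was 55.9% with Leiden clusters, 52.1% with no minimum, 29.5% with another seed and 27.96% thinned to 2000 UMIs. No value could be had for the Xcr1 ratio in thinned cells or for ZC1 over ZC3 in thinned cells or at 4 times the next barcode. For 40 single ratios there were 183 further alternatives, and a turn of direction was counted only where the reported interval left out 1. By that rule 7 turned, all in the split by Xcl1: Ccl3 to 0.958 without the top cell, Ccl4 to 3.12 with another seed and 4.81 with another seed in cells without dsRed, Gzmc to 6.99, 3.65 and 13.4 with another seed, 2000 UMIs and another seed without dsRed, and Cxcl10 to 0.730 at 2000 UMIs. Ratios whose reported interval held 1 were not counted as turning. With Leiden clusters, Xcl1 in CD8 T over CD4 T was 255 in place of 7.54. The causes were not tested. Depth limits Flt3l and Flt3 most, with 851 and 515 UMIs in all.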
